A study of Homo sapiens with 6 samples.

Results

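Semaphorins, plexins, neuropilins, ephrins, Eph receptors, Slits, Robo receptors, netrins and UNC5 receptors are the ligand and receptor families that were first described as guides of growing axons. Semaphorins signal through plexins, and most secreted class 3 semaphorins need a neuropilin to hold the plexin receptor complex together. Ephrins are tethered to the cell surface and bind Eph receptor tyrosine kinases on the neighbouring cell, Slits bind Robo receptors, and netrins bind DCC and UNC5 receptors or, for netrin-4, laminins of the basement membrane. In epithelial and tumour cells the same proteins act on the actin cytoskeleton, cell adhesion, migration and vessel growth.

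The genes described here were chosen by symbol: all SEMA, PLXN, EPHA, EPHB, EFNA and EFNB genes, together with NRP1, NRP2, SLIT1 to SLIT3, ROBO1 to ROBO4, NTN1, NTN4, UNC5B and UNC5C. Antisense genes that carry such a symbol were not taken. In all, 63 of the 19775 genes measured by a probe set with a single gene symbol met this rule, 33 of them ligands and 30 receptors. EPHB2 was not analysed here.

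Expression was measured on Affymetrix U133 Plus 2.0 arrays in MDA-MB-231, an invasive breast cancer cell line. The tested cells carried a pLKO.1 lentiviral short hairpin against ATAD3A, an ATPase of the inner mitochondrial membrane (shATAD3A, 3 arrays), and the control cells carried the same vector with a hairpin against GFP (shGFP, 3 arrays). Both were puromycin-resistant lines (1.0 µg/ml over 2 weeks) used at passage 2, and the labels name no clone and no second hairpin. Whether the replicates were separate cultures is not given either, so the p-values rest on a spread among arrays that could be technical, and the number of arrays limits the precision.

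All values below are deposited log2 expression values, and all changes are shATAD3A minus shGFP on that scale, with the SE of the limma fit. A gene was said to rise or fall when its limma p-value, adjusted by the Benjamini-Hochberg method over all 19775 genes, was under 0.05. The distribution of gene means has a peak of dim probe sets with little signal, the low mode, and the density is lowest at 4.698 above that peak. A gene with both group means under that point is described as in the low mode. Because the low mode compresses differences, the size of a change is uncertain where a group mean lies in it. A change called imprecise below is of this kind, which its SE does not show.

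ATAD3A read 7.41, 7.03 and 7.39 on the shATAD3A arrays, against 7.73, 7.78 and 7.80 on the shGFP arrays. The change was -0.49 ± 0.105 (SE; limma adjusted p = 0.0129), to 0.710 of the control, and it did not pass at an adjusted p of 0.01. ATAD3A was measured by 1 probe set, of the x_at type, whose probes can bind other transcripts. Arrays correlated at 0.99856 to 0.99913 within groups and at 0.98901 to 0.98978 between them across probe sets, and no array stood apart from its group. Of the MDA-MB-231 markers, VIM, CD44, AXL and EGFR were all far above the low mode in both groups, and the hormone receptors ESR1 and PGR were in it. ERBB2, also listed as low in this line, was above the low mode, at 8.31 in shATAD3A and 7.80 in shGFP (means, n = 3 each). Markers of leukocytes were in the low mode in both groups for all 3 measured of 4 listed. Their summed level lay between 7.567 and 7.902 on the shATAD3A arrays and between 9.065 and 9.744 on the shGFP arrays, a gap that CD14 carried. The endothelial markers CDH5, TEK and VWF were in the low mode, while PECAM1 had a mean of 5.30 in shATAD3A and 6.57 in shGFP. The summed level of the 4 endothelial markers was 12.06 to 12.75 on the shATAD3A arrays and 13.47 to 14.1 on the shGFP arrays. That of the 4 neuronal markers was 13.43 to 14.34 on the shATAD3A arrays and 11.74 to 12.16 on the shGFP arrays. Most of that gap came from SNAP25 (a change of 1.70 within the low mode, limma adjusted p = 0.000396). SYT1, at the edge of the low mode, had means of 4.87 in shATAD3A and 4.67 in shGFP. It did not pass (limma adjusted p = 0.159). RBFOX3 and STMN2 were in the low mode in both groups. The part of these markers in the results below was not tested.

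The test called 19 of the 63 guidance genes, with 10 higher and 9 lower in knockdown cells, and 44 were not called. The share that changed was 30.2%, against 33.6% of all genes tested; by direction, 15.9% rose and 14.3% fell, against 19.7% and 13.9% of all genes. Of the 63, 33 were in the low mode in both groups, and of these SEMA5A alone passed. Of the 30 above the low mode in a group, 9 rose and 9 fell (60.0%), against 62.0% of all genes above it, of which 36.5% rose and 25.5% fell. The groups did not overlap for 25 of the 63 (39.7%), against 42.0% of all genes. The share of guidance genes that changed was thus close to that of the array as a whole. Changes of at least 2-fold were found for 9 guidance genes (14.3%), against 5.82% of all genes tested and, among genes above the low mode, for 9 of 30, against 10.5%. By direction, 5 of the 63 rose and 4 fell that far, against 3.40% and 2.42% of all genes. The median size of the change, without its sign, was 0.40 for the 30 guidance genes above the low mode and 0.30 for all 10393 such genes.

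The 9 with changes of at least 2-fold were the ligands SEMA3F, SEMA3E, NTN4 and EFNA1 and the receptor PLXNA2, which rose, and the ligands SLIT2 and SEMA3A and the receptors PLXNA1 and ROBO4, which fell. Among all 33 ligands 8 rose and 4 fell (24.2% and 12.1%), and among all 30 receptors 2 rose and 5 fell (6.67% and 16.7%), against 19.7% and 13.9% of all genes. The difference between ligands and receptors was not tested. The plot of each array's value for the 9 genes shows that no shATAD3A array reached into the range of the shGFP arrays for any of them. The 9 were picked by p-value and change from the same values, so this separation is no further support.

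**Figure D1:**
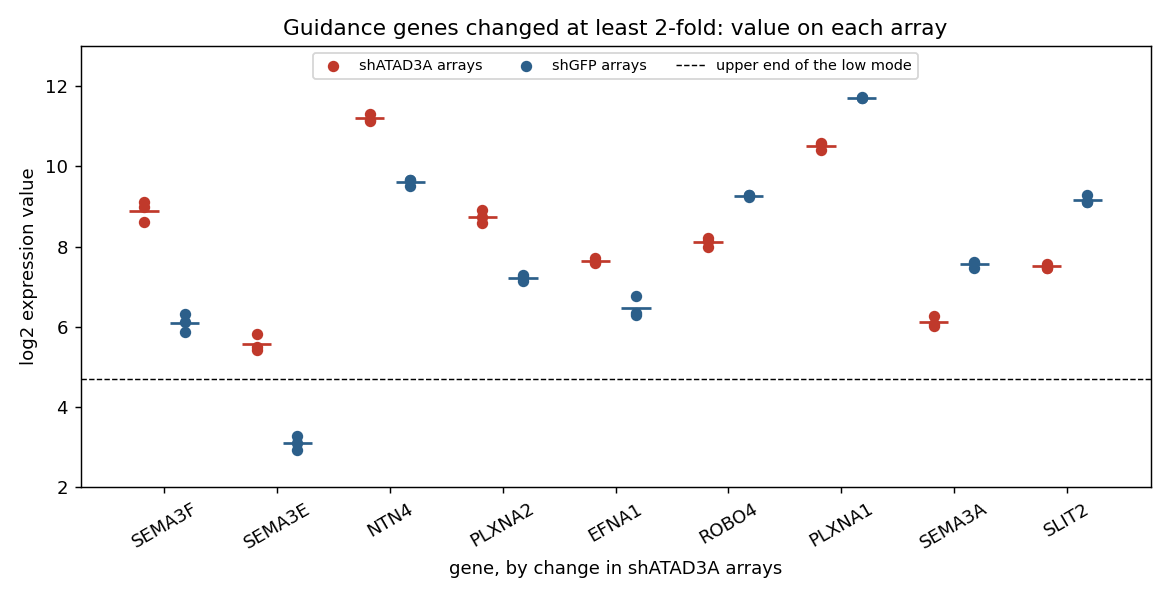
Log2 expression value (vertical axis) of the 9 guidance genes that changed at least 2-fold, in order of their change from SEMA3F to SLIT2; points are single arrays, with shATAD3A left of shGFP for each gene, short lines are group means (n = 3), and the dashed line at 4.698 is the upper end of the low mode. SEMA3E on the shGFP arrays is the one group below that line, and the groups of every gene shown are separate.

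Upstream sequences are given for a pair of genes that rose together, SEMA3F and the plexin PLXNA2, and for a pair that fell together, SLIT2 and the Robo receptor ROBO4. Each is the 250 bases before the first start site that the RefSeq promoter table (GRCh38.p14) lists for the gene, 5′ to 3′ on the gene's strand. They lie at chr3:50154808-50155057 (plus strand), chr1:208244385-208244634 (minus strand), chr4:20251655-20251904 (plus strand) and chr11:124897866-124898115 (minus strand). Capitals mark matches, on either strand and with overlaps, to GGGCGG (GC box, bound by SP factors), CACCTG (the E box that ZEB and SNAI repressors bind) and TGANTCA (AP-1).
SEMA3F: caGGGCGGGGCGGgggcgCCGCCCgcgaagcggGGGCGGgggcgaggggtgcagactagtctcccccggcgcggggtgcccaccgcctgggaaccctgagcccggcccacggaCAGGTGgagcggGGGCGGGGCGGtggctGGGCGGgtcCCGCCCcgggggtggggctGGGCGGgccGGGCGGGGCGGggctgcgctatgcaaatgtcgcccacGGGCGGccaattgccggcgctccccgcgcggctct
PLXNA2: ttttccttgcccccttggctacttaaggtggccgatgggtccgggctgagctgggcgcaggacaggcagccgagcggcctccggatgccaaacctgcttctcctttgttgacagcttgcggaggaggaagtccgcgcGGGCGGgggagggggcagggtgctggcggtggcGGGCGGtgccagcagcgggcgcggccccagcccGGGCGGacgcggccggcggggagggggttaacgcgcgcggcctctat
SLIT2: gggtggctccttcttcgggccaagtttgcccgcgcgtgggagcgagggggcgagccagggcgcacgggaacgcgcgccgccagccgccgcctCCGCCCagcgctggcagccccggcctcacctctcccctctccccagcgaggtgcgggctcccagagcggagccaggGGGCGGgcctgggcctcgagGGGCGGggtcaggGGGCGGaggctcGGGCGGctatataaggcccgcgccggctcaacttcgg
ROBO4: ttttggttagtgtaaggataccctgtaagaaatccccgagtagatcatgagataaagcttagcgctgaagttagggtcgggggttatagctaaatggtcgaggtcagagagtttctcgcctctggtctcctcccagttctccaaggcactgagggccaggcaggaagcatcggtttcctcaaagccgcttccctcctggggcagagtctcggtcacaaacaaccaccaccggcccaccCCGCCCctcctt

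The SEMA3F window held 12 GC boxes and 1 E box, and 82.0% of its bases were G or C. That of PLXNA2 held 3 GC boxes, that of SLIT2 held 5 and that of ROBO4 held 1, with 72.4%, 77.2% and 54.8% of bases G or C. No AP-1 match was found in the 4 windows. Of 27305 genes with a window of this length, 42.3% held a GC box, 17.5% this E box and 6.6% the AP-1 motif. Among the 9 genes changed at least 2-fold, a GC box was found for 3 of the 5 that rose and for 3 of the 3 with a window that fell, and the E box for 1 and 0. The 27305 genes were not matched to these 9 for level or base content, and the difference from them was not tested. A match describes the letters of the window only.

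The class 3 semaphorins are secreted. SEMA3F, which repels cells and vessels through neuropilin-2, read 8.61, 9.10 and 8.98 on the shATAD3A arrays, against 5.87, 6.33 and 6.12 on the shGFP arrays. All shATAD3A arrays were far above all shGFP arrays, and the change of 2.79 ± 0.166 (SE; limma adjusted p = 6.28e-05), or 6.92-fold, was the largest of any guidance gene. A second SEMA3F probe set rose by 1.35 (adjusted p = 0.0178 over all probe sets), and the remaining one lay in the low mode.

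SEMA3E, which binds plexin-D1 directly without a neuropilin, read 5.50, 5.81 and 5.43 on the shATAD3A arrays, against 3.10, 2.94 and 3.27 on the shGFP arrays. It thus lay in the low mode in control cells and above it in knockdown cells, with an imprecise change of 2.48 ± 0.127 (SE; limma adjusted p = 3.76e-05). It was measured by 1 probe set, of the x_at type, whose probes can bind other transcripts.

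SEMA3A, the founding repellent of the family, went the other way. It read 6.01, 6.28 and 6.07 on the shATAD3A arrays, against 7.47, 7.60 and 7.61 on the shGFP arrays. These groups did not overlap, and the change was -1.44 ± 0.0801 (SE; limma adjusted p = 5.04e-05), to 0.368 of the control. A second SEMA3A probe set, with means of 4.21 in shATAD3A and 4.87 in shGFP, gave -0.66 (adjusted p = 0.111).

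SEMA3C, which signals through both neuropilins and plexin-D1, averaged 11.2 ± 0.0852 in shATAD3A and 10.9 ± 0.125 in shGFP (SD, n = 3 each), a rise of 0.37 ± 0.0754 (SE; limma adjusted p = 0.0101). The other SEMA3C probe set over that boundary gave 0.077 (adjusted p = 0.299). SEMA3B, SEMA3D and SEMA3G were in the low mode in both groups, with changes of 0.0097 to 0.032 in size that did not pass.

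The other semaphorins are transmembrane or lipid-anchored proteins. SEMA4D, the ligand of plexin-B1 that is also made by T cells as CD100, read 6.46, 6.49 and 6.48 on the shATAD3A arrays, against 7.49, 7.39 and 7.43 on the shGFP arrays. The groups were well apart and tight, with a change of -0.96 ± 0.0351 (SE; limma adjusted p = 1.12e-05). SEMA7A, the lipid-anchored ligand of plexin-C1, rose by 0.42 ± 0.0731 (SE; limma adjusted p = 0.00558), with 6.73 to 6.94 on the shATAD3A arrays and 6.34 to 6.53 on the shGFP arrays. SEMA5A rose by 0.71 (limma adjusted p = 0.00105), but with means of 3.41 in shATAD3A and 2.69 in shGFP it lay within the low mode on its brightest probe set and its other probe sets were not called.

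SEMA4B, SEMA4C and SEMA4F were above the low mode and did not pass. SEMA4B gave 0.28 ± 0.0891 (SE; limma adjusted p = 0.0567), its groups did not overlap, and it passed under 4 of 19 other settings. SEMA4C and SEMA4F gave -0.055 and 0.094. All 4 class 6 semaphorins were in the low mode with changes between -0.014 and 0.051, the last being SEMA6D (limma adjusted p = 0.764). SEMA4A, SEMA4G and SEMA5B were also in the low mode and did not pass.

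**Figure D2:**
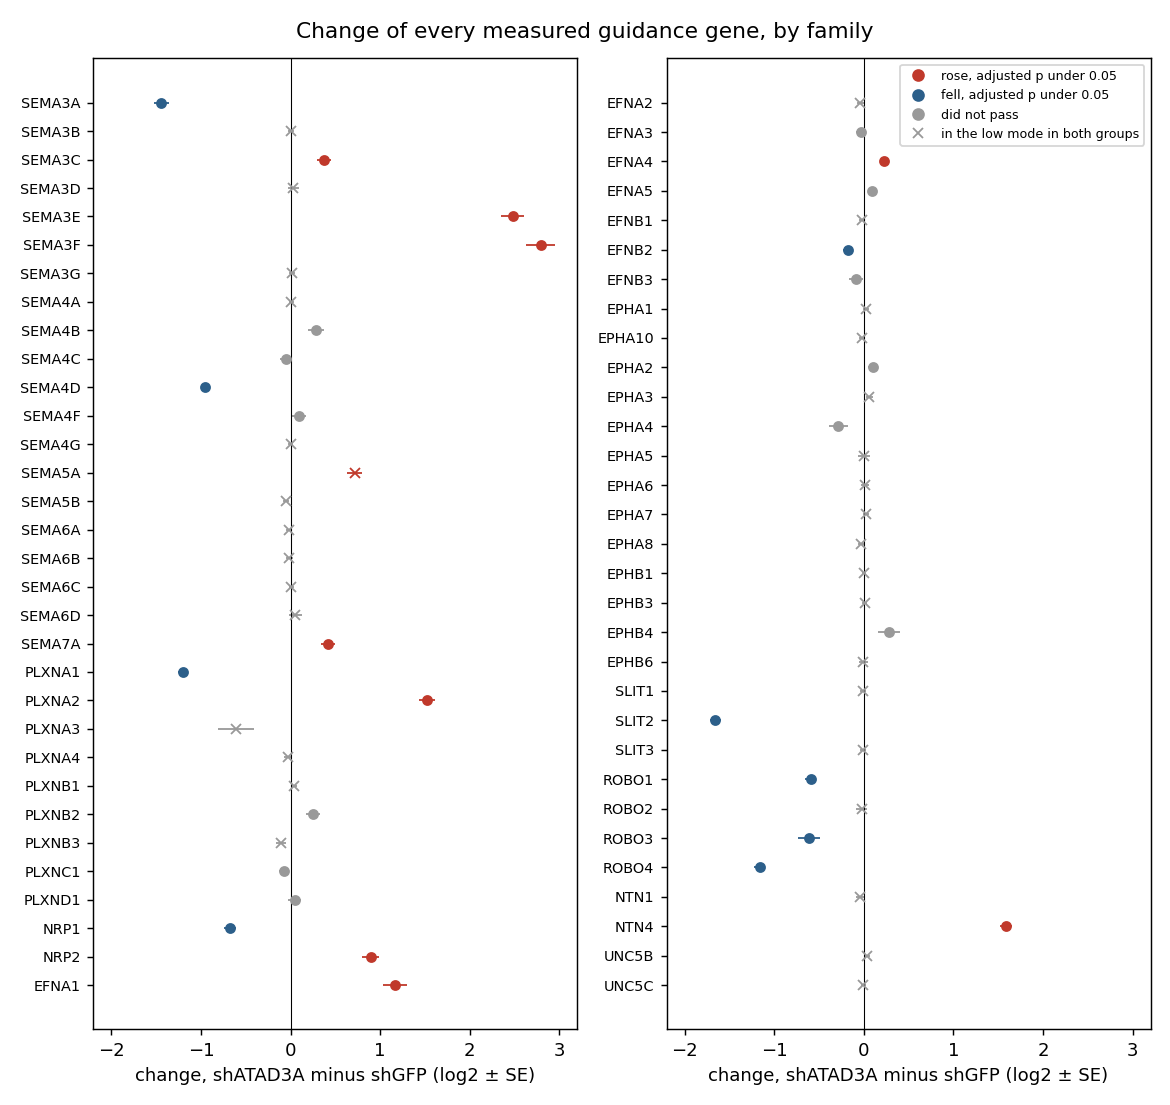
Change of each of the 63 guidance genes, shATAD3A minus shGFP on the log2 scale (horizontal axis), with the SE of the limma fit as bars, ordered by family down the left and then the right panel. Red marks a rise, blue a fall and grey no call; crosses mark genes in the low mode in both groups, which sit near 0 except SEMA5A and PLXNA3.

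Among the plexins, the transmembrane receptors of semaphorins that carry a GTPase-activating domain, a pair of A-type members moved in opposite directions. PLXNA2 read 8.59, 8.92 and 8.73 on the shATAD3A arrays, against 7.14, 7.29 and 7.24 on the shGFP arrays. Every shATAD3A array was higher, and the rise was 1.52 ± 0.0876 (SE; limma adjusted p = 5.70e-05), or 2.87-fold. Its second probe set above the low mode rose by 1.21 (adjusted p = 0.000409 over all probe sets).

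PLXNA1, a co-receptor of neuropilin-1 for SEMA3A, read 10.55, 10.59 and 10.40 on the shATAD3A arrays, against 11.73, 11.70 and 11.71 on the shGFP arrays. The control arrays were nearly alike and all above the knockdown arrays, with a change of -1.20 ± 0.0534 (SE; limma adjusted p = 2.25e-05), to 0.436 of the control. Its probe sets disagreed in size: another, with means of 6.41 in shATAD3A and 6.57 in shGFP, gave -0.16 (adjusted p = 0.70 over all probe sets). The PLXNA1 call was lost when s_at and x_at probe sets were left out.

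The remaining plexins did not pass. PLXNB2, a receptor of class 4 semaphorins, gave 0.25 ± 0.0778 (SE; limma adjusted p = 0.0538) with groups that did not overlap, and it passed, upward, under 7 of 19 other settings (lowest limma adjusted p = 0.00518, without shATAD3A replicate 1). PLXNC1 and PLXND1, the receptors of SEMA7A and SEMA3E, gave -0.072 and 0.044. PLXNA3, a partner of neuropilin-2, lay in the low mode and gave -0.61 ± 0.204 (SE; limma adjusted p = 0.0694). PLXNA4, PLXNB1 and PLXNB3 were in the low mode too.

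The neuropilins, co-receptors of class 3 semaphorins and of VEGF, also moved in opposite directions. NRP1 read 11.81, 11.81 and 11.62 on the shATAD3A arrays, against 12.35, 12.44 and 12.48 on the shGFP arrays, with no overlap and a change of -0.68 ± 0.0659 (SE; limma adjusted p = 0.000448). Its second probe set above the low mode gave -0.69 (adjusted p = 0.000508). NRP2 read 5.776, 5.647 and 5.940 on the shATAD3A arrays, against 4.752, 4.934 and 4.995 on the shGFP arrays, a rise of 0.89 ± 0.0948 (SE; limma adjusted p = 0.000649) from a level only just above the low mode. Of the 10 other NRP2 probe sets, all in the low mode, 2 rose and none fell; the changes of those 2 were 0.79 and 1.46.

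Set beside the ligands, SEMA3A and its listed receptors NRP1 and PLXNA1 were all lower in knockdown cells, PLXNA1 on 1 of its 2 probe sets above the low mode. PLXNA4, also listed as a SEMA3A receptor, was in the low mode and did not pass. NRP1 is also a receptor of SEMA3C, which rose, and the A-type plexin PLXNA2 rose. Of the other SEMA3C receptors listed, NRP2 rose and PLXND1 did not pass. SEMA3F and NRP2 were both higher, while PLXNA3 was in the low mode and did not pass. The receptors were listed by hand, and the lists need not be complete. PLXNA2, which rose by 1.52, was in no list, and PLXNA1, with a change of -1.20, was not in that of SEMA3F. For SEMA3E, SEMA4D and SEMA7A the ligand moved and PLXND1, PLXNB1, PLXNB2 and PLXNC1 did not pass, with PLXNB2 close to the threshold as given above. The arrays measure RNA, so binding and signalling were not analysed here.

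**Figure D3:**
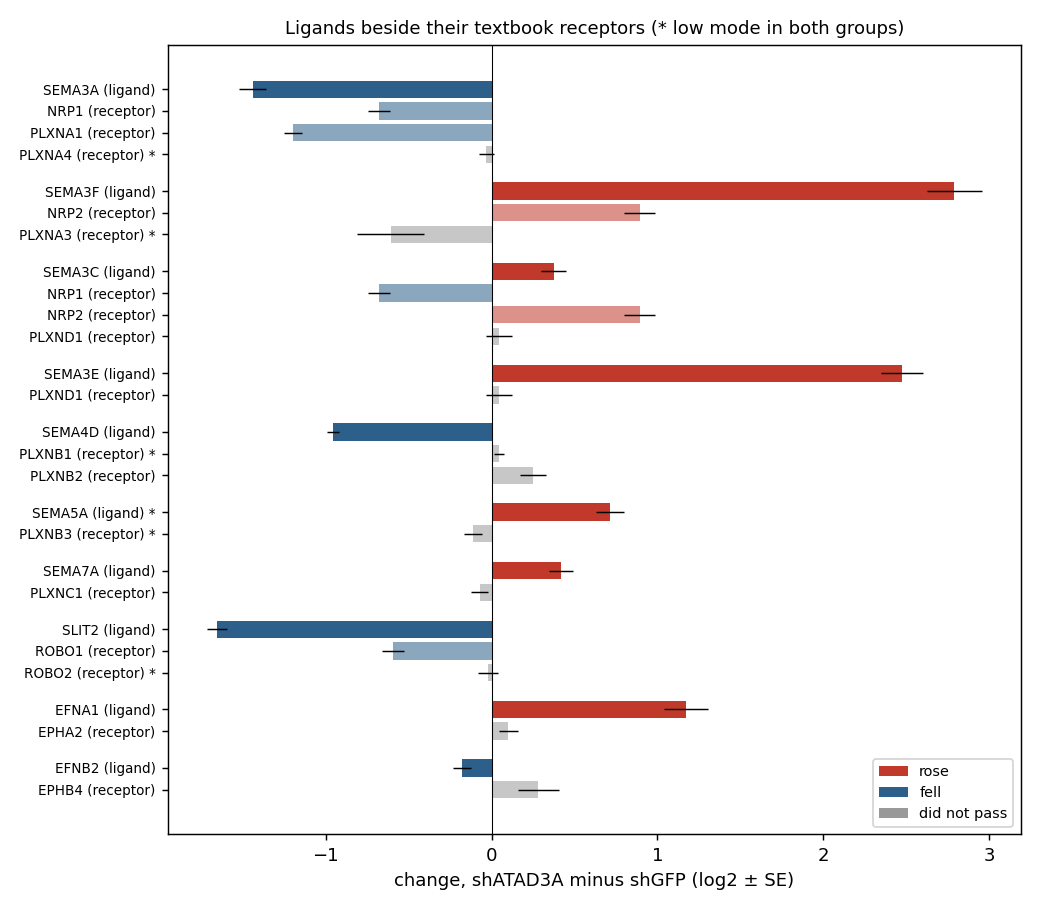
Change of 10 ligands and of receptors they are known to bind, shATAD3A minus shGFP on the log2 scale (horizontal axis, SE as bars), grouped by ligand; solid bars are ligands, paler bars receptors, red a rise, blue a fall, grey no call, and a star marks the low mode in both groups. SEMA3A, NRP1 and PLXNA1 point down together, with PLXNA4 near 0. The receptor lists need not be complete, and PLXNA2, which rose, is not shown. SEMA3F and NRP2 point up together, with PLXNA3 down and not called. EFNA1 moves beside an EPHA2 bar near 0.

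SLIT2, ROBO1, ROBO3 and ROBO4, the 4 Slit and Robo genes above the low mode, fell, as did 25.5% of all genes above it. SLIT2, a large secreted ligand often silenced in breast tumours, read 7.48, 7.58 and 7.48 on the shATAD3A arrays, against 9.28, 9.12 and 9.10 on the shGFP arrays. Every shATAD3A array was far below every shGFP array, and the change was -1.66 ± 0.0593 (SE; limma adjusted p = 1.02e-05), to 0.317 of the control. Both other SLIT2 probe sets were above the low mode and gave -1.73 and -1.79 (adjusted p = 3.66e-05 and 0.000187 over all probe sets). SLIT1 and SLIT3 were in the low mode, with changes of -0.0077 and -0.0090.

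ROBO1, a widely expressed Slit receptor, read 9.98, 10.14 and 10.19 on the shATAD3A arrays, against 10.75, 10.72 and 10.62 on the shGFP arrays, a change of -0.59 ± 0.0662 (SE; limma adjusted p = 0.000801). ROBO3, a divergent Robo that regulates midline crossing, read 6.99, 7.12 and 7.17 on the shATAD3A arrays, against 7.86, 7.82 and 7.44 on the shGFP arrays, a change of -0.61 ± 0.120 (SE; limma adjusted p = 0.00912). Both genes were lower on every shATAD3A array than on any shGFP array, with shGFP replicate 3 of ROBO3 the closest to them.

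ROBO4, best known from endothelial cells, read 7.98, 8.15 and 8.20 on the shATAD3A arrays, against 9.29, 9.25 and 9.28 on the shGFP arrays. Its change of -1.16 ± 0.0600 (SE; limma adjusted p = 3.94e-05), to 0.448 of the control, was seen on 1 of its 2 probe sets, the other being in the low mode in both groups. The endothelial markers CDH5, TEK and VWF were in the low mode on these arrays, and PECAM1 changed by -1.27 (limma adjusted p = 0.00737). ROBO2 was in the low mode and gave -0.021.

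NTN4, a laminin-binding netrin of basement membranes, read 11.31, 11.12 and 11.16 on the shATAD3A arrays, against 9.52, 9.66 and 9.66 on the shGFP arrays. All shATAD3A arrays were higher, by 1.58 ± 0.0657 (SE; limma adjusted p = 1.77e-05), or 3.00-fold. The classical netrin NTN1 and the netrin receptors UNC5B and UNC5C were in the low mode in both groups, with changes of -0.042, 0.039 and -0.0042. None of these 3 passed (UNC5B had the lowest p of the UNC5 receptors, limma adjusted p = 0.442).

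Among the 8 ephrins 2 rose and 1 fell. EFNA1, a lipid-anchored ligand of EPHA2 that was first found as a TNF-induced gene of endothelial cells, read 7.62, 7.71 and 7.59 on the shATAD3A arrays, against 6.34, 6.78 and 6.28 on the shGFP arrays. The second shGFP array was the highest of the controls but still below every shATAD3A array, and the rise was 1.17 ± 0.133 (SE; limma adjusted p = 0.000884), or 2.25-fold.

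EFNA4 rose by 0.23 ± 0.0506 (SE; limma adjusted p = 0.0149), with 6.92 to 7.01 on the shATAD3A arrays and 6.65 to 6.82 on the shGFP arrays; this call was lost without shATAD3A replicate 2 (limma adjusted p = 0.0504). EFNB2, the transmembrane ligand of EPHB4 that marks arterial vessels, gave -0.18 ± 0.0539 (SE; limma adjusted p = 0.0488), a call at the edge of the threshold. It was lost under 9 of 19 other settings, including without shATAD3A replicate 1 or 2 and without shGFP replicate 1 or 3. EFNA5 was above the low mode and gave 0.094. EFNA3 and EFNB3 lay at its upper edge and gave -0.036 and -0.082, and EFNA2 and EFNB1 were in it.

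None of the 13 Eph receptors measured passed the limma test over all genes at an adjusted p of 0.05, and 1, EPHA4, had an unadjusted p under 0.05. EPHA2, the receptor tyrosine kinase of EFNA1 that is abundant in basal-like breast tumours, read 11.29, 11.45 and 11.26 on the shATAD3A arrays, against 11.27, 11.18 and 11.24 on the shGFP arrays. Its groups overlapped, and its change was 0.10 ± 0.0573 (SE; limma adjusted p = 0.279). EPHA4 gave -0.28 ± 0.109 (SE; limma adjusted p = 0.107), with no overlap between groups. EPHB4 gave 0.28 ± 0.123 (SE; limma adjusted p = 0.156), with overlap. The other 10 Eph receptors were in the low mode in both groups. Of all genes tested 33.6% passed, and of all genes above the low mode 62.0%. With array weights EPHB4 passed (limma adjusted p = 0.0367), and EPHA4 passed when genes in the low mode were left out before the fit (limma adjusted p = 0.0418). With the median of neighbouring genes above the low mode removed, the direction of EPHA2 turned (-0.26, limma adjusted p = 0.00865) and EPHA4 gave -0.63 (limma adjusted p = 0.00136).

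Several guidance genes are neighbours on a chromosome, in the order of the tested genes in the RefSeq table. On chromosome 7, SEMA3E and SEMA3A have no tested gene between them, and SEMA3E rose by 2.48 while SEMA3A changed by -1.44. SEMA3D, next to SEMA3A, was in the low mode with 0.032, and SEMA3C lies 3 tested genes from SEMA3E. On chromosome 1, EFNA4, EFNA3 and EFNA1 are consecutive tested genes, with changes of 0.23, -0.036 and 1.17. On chromosome 11, ROBO3 and ROBO4 are adjacent and both fell, by 0.61 and 1.16 on the log2 scale. On chromosome 3, SEMA3F rose while SEMA3B, 3 tested genes away, was in the low mode with 0.0097, and ROBO1 fell beside ROBO2 in the low mode.

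Each change was also set beside that of its surroundings along the chromosome. The median change of up to 25 genes above the low mode on either side lay between -0.096 and 0.46 for the 19 guidance genes that changed. Each gene's own change was larger in size than that median. The 19 were picked by p-value from the same values, and the median change of all genes above the low mode was 0.065. The larger size is therefore no further support, and whether whole stretches moved with a gene was not tested. The highest of these medians, 0.46, belonged to SEMA5A. The next highest was 0.17 (SEMA3F). For 13 of the 19 the change had the sign of the surrounding median. On chromosome X, the median was -0.47 around each of PLXNA3 and PLXNB3 and -0.66 around EFNB1. These genes were in the low mode and did not pass, with changes of -0.61, -0.11 and -0.017.

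**Figure D4:**
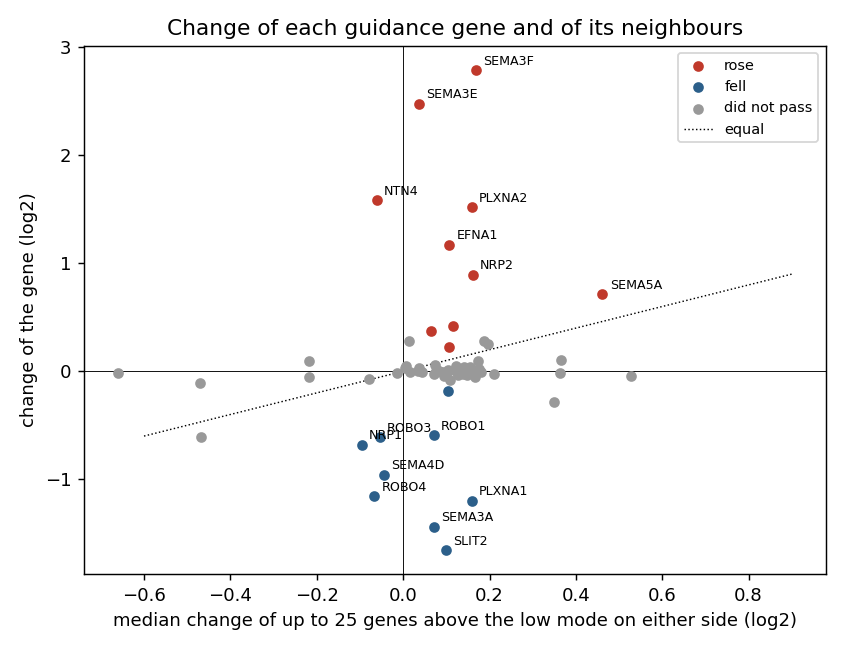
Change of each guidance gene (vertical axis, log2) against the median change of up to 25 genes above the low mode on either side of it along the chromosome (horizontal axis, log2); red points rose, blue points fell, grey points did not pass, and the dotted line marks equal values. The genes with changes of at least 2-fold have surrounding medians between -0.067 and 0.17.

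Of 91 further genes listed for these pathways, 84 were measured, and 20 rose, 20 fell and the other 44 were not called. The share changed was 47.6%, against 33.6% of all genes tested. These shares are not matched for level, as 55 of the 84 were above the low mode in a group, against 10393 of all 19775. Of those 10393 genes 62.0% changed. The 47.6% is not comparable with this, as 29 of the 84 were in the low mode in both groups. By direction, 23.8% of the 84 rose and 23.8% fell, against 19.7% and 13.9% of all genes. Of all genes above the low mode, 36.5% rose and 25.5% fell. The median change of the 84 was -0.0099, against -0.00084 for all genes.

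Among 25 other ligands and receptors, 4 rose and 5 fell (16.0% and 20.0%, against 19.7% and 13.9% of all genes). NEO1, the netrin and repulsive guidance molecule receptor neogenin, fell into the low mode, with means of 3.303 in shATAD3A and 6.062 in shGFP and an imprecise change of -2.76 (limma adjusted p = 5.24e-05). L1CAM, an adhesion molecule that joins neuropilin-1 in the SEMA3A receptor, changed by -2.06 (limma adjusted p = 7.04e-05). GPC1, a heparan sulphate proteoglycan that binds Slits, lay in the low mode in shGFP and rose by an imprecise 2.83 (limma adjusted p = 0.00113), and MST1R, a MET-family receptor tyrosine kinase, rose by 1.60 (limma adjusted p = 0.000154).

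Among 25 effectors of semaphorins and plexins, 7 rose and 6 fell. DPYSL2, also called CRMP2, the tubulin-binding protein through which SEMA3A acts on growth cones, averaged 11.6 in shATAD3A and 12.9 in shGFP and changed by -1.23 ± 0.0393 (SE; limma adjusted p = 6.98e-06). Among 19 effectors of Eph receptors and ephrins, 16 of them above the low mode, 7 rose and 3 fell (36.8% and 15.8%), all by less than 2-fold. Among 15 effectors of Slits, Robo receptors and netrins, 13 of them above the low mode, 2 rose and 6 fell (13.3% and 40.0%). The differences of these lists from all genes were not tested. Of those that fell, CDC42 changed the most, by -0.52 (limma adjusted p = 0.0059). ENAH, an actin-elongating protein downstream of Robo and netrin receptors, rose by 0.95 ± 0.0457 (SE; limma adjusted p = 3.02e-05).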

How the data were processed

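Biotin-labelled RNA was prepared from 250 ng total RNA with a 3' IVT kit, per the labels' protocols. The authors deposited 1 value per probe set on a log2 scale, as judged from the range of the values; how probe sets were summarised and normalized is not given in the sources used here. Medians of the 6 arrays ranged from 3.1554 to 3.2268. The submitters' processing notes list Partek, with no version.

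The table held 54675 probe sets. After removal of 62 controls, the platform annotation (2016) gave a single symbol to 41091, several to 1801 and none to 11721; the RefSeq table updated 0 of these symbols through Entrez IDs. A gene was represented by its brightest single-symbol probe set over the 6 arrays, with no filter on dim ones. Groups were taken from the sample titles, and 0 columns were unmatched. The most alike pair of arrays shared 0.0165% of values.

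The 3 shATAD3A and 3 shGFP arrays were compared by limma 3.58.1 (moderated linear model without covariates, two-sided) under R 4.3.3, and p-values were adjusted by Benjamini-Hochberg over all genes. Single probe sets were fitted likewise over all probe sets. The fit was tested on simulated data. The guidance genes, the further pathway genes, the markers and the tests were chosen with earlier results of these data known. Values on every array were given for members that passed with separate groups and changed by at least 1 on the log2 scale; they were also given for SEMA4D, NRP1, NRP2, ROBO1, ROBO3 and EPHA2, chosen after their values were seen, and others were counted or given by their change. Alternatives covered normalization, filters, probe set choice, the variance prior, array weights, the threshold, neighbouring genes, the replicate number as a block and leaving out each array. The low mode boundary and the neighbour median over genes above it were set after seeing the data.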

Additional observations from a re-analysis of the deposited data

How the results depend on the processing

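Under 19 other settings, 15 of the 19 guidance genes that changed kept their direction and their side of the threshold in every setting that could measure them: EFNA1, NRP1, NRP2, NTN4, PLXNA2, ROBO1, ROBO3, ROBO4, SEMA3A, SEMA3E, SEMA3F, SEMA4D, SEMA5A, SEMA7A and SLIT2. PLXNA1 lost its call without s_at and x_at probe sets (-0.16, limma adjusted p = 0.664), SEMA3C at an adjusted p of 0.01, EFNA4 under 4 of 18 settings and EFNB2 under 9 of 19; none of the 19 reversed. Of the genes not called, PLXNB2, SEMA4B, EPHA4, EPHB4, EPHA2, PLXNA3, EFNA5 and EFNA2 passed under at least 1 setting, EFNA2 downward with the median of all neighbouring genes removed (-0.26, limma adjusted p = 0.00275). The number that rose was 7 to 13 and the number that fell 7 to 10 under the planned settings, against 10 and 9; with the median of neighbouring genes above the low mode removed (an alternative added once the data had been seen) they were 9 and 11. SEMA3E, SEMA3C and EFNA4 have no value without s_at and x_at probe sets, and SEMA3E and SEMA5A none where dim genes were left out. Sizes depended on the probe set: SEMA3F rose by 1.40 to 2.94, NRP2 by 0.36 to 1.46, and ROBO4 and SEMA3A changed by as little as -0.65 and -0.75.

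Leaving out each array in turn gave 9 to 12 rises and 8 to 9 falls. Same-numbered arrays did not deviate together (correlations of -0.237, -0.183 and 0.069 over genes above the low mode), so the numbers were not taken to pair the arrays. Arrays with different numbers gave -0.107 to 0.265. The highest were 0.265 for shATAD3A replicate 2 with shGFP replicate 1 and 0.214 for shATAD3A replicate 1 with shGFP replicate 2. An array effect shared in another order was not tested. With the replicate block 11 guidance genes rose and 8 fell, and 6057 genes changed in all, against 6644. Signal near the low mode limits what can be said of the 33 genes that lie in it.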
